A study of Mus musculus with 30 samples.

Results

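The livers of obese mice kept on a high-fat diet (HFD) were compared with those of mice kept on a standard diet for the same time (NFD), in 5 libraries per group, which are 10 of the 30 RNA sequencing libraries of the series. HFD mice ate a high-fat diet for 10 weeks, by which time they were obese, and for 8 more weeks with water as vehicle. NFD mice ate a standard diet with water for 18 weeks. Both groups belong to a study of obese mice. Its remaining group was obese mice on a high-fat diet given UB-NPs (60 mg/kg/day) for those 8 weeks. That group enters the fit to share the estimate of the spread. It also takes part in the filter on low counts and in the scaling of libraries. The diet comparison after 10 weeks, a high-fat diet (MC) against a standard diet (NC) with water as vehicle and 5 libraries each, is used where the 2 diet effects are set against each other. The 10-week group given UB-NPs (60 mg/kg/day) with a high-fat diet, 5 libraries, enters those fits in the same way. The composition of the diets and the strain, sex and age of the mice are not given in the sources used here. The labels name 10 mice per group and do not state that a library is 1 mouse, so p-values measure the spread between libraries.

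The liver takes up fatty acids and glucose from blood, stores fat as triglyceride in droplets, burns fatty acids in mitochondria, makes cholesterol and bile acids, and turns the nitrogen of amino acids into urea. It also holds resident macrophages, the Kupffer cells, and in fatty livers recruits blood monocytes that become lipid-associated macrophages. In mice, many liver genes differ between the sexes through the rhythm of growth hormone secretion. In long feeding of a high-fat diet, a fatty liver with inflammation is the usual picture.

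Total counts were 17715680 to 21069485 in HFD libraries and 17001679 to 18169987 in NFD libraries (exact two-sided permutation test of the means, p = 0.0159). Transcripts of the mitochondrial genome took 46.96 ± 7.13% of the counts in HFD livers and 49.1 ± 7.82% in NFD livers (SD, n = 5 each), a difference within the spread (exact permutation test, p = 0.659). With 7 nuclear copies of mitochondrial genes on chromosome 1 added, the share was 66.1 ± 9.68% in HFD livers and 68.4 ± 10.4% in NFD livers (exact permutation test, p = 0.730). With both kinds of gene left out of the fit, 1837 genes were called, and 96.3% of the calls given next were among them. The Y-linked Ddx3y had 672 to 1155 counts in HFD libraries and 361 to 1028 in NFD libraries, and the X-inactivation RNA Xist had at most 3. Albumin (Alb) averaged 13008 ± 3521 CPM in HFD livers and 16564 ± 3038 CPM in NFD livers (SD, n = 5 each), and exocrine pancreas markers summed to 4.65 to 11.2 CPM in HFD livers and 10.7 to 26.0 CPM in NFD livers. The first principal component, 37.8% of the variance, separated all HFD from all NFD libraries. More genes were detected in HFD libraries, 16144 to 18772, than in NFD libraries, 14072 to 17006 (exact permutation test of the means, p = 0.0397). NFD replicate 5 stood apart, with 14072 genes detected against 15141 to 17006 in the other NFD libraries, and a median correlation of 0.896 with them (0.931 to 0.955 for the other 9 libraries within their groups).

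Of 14163 genes tested, 1863 (13.2%) differed at an adjusted p under 0.05 by the quasi-likelihood F-test of edgeR with Benjamini-Hochberg adjustment over all genes, which is what "called" means here. They comprised 1019 genes higher in HFD livers (7.19%) and 844 lower (5.96%), and the median log2 fold change of all genes was 0.03. These shares are the background for every list counted below. The 5 HFD and 5 NFD values did not overlap for 1146 genes (8.09%), of which 953 were called. With HFD replicate 5 left out, 1108 genes were called, and 1178 without HFD replicate 4. In the fit of the 10 HFD and NFD libraries alone 1081 genes were called, and it shared 57.4% of the 1863 calls. Levels are counts-per-million (CPM) on library sizes scaled by trimmed means, and fold changes are log2 of HFD over NFD with an approximate standard error (SE). Values of a group are listed in the order of its replicates 1 to 5.

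**Figure D1:**
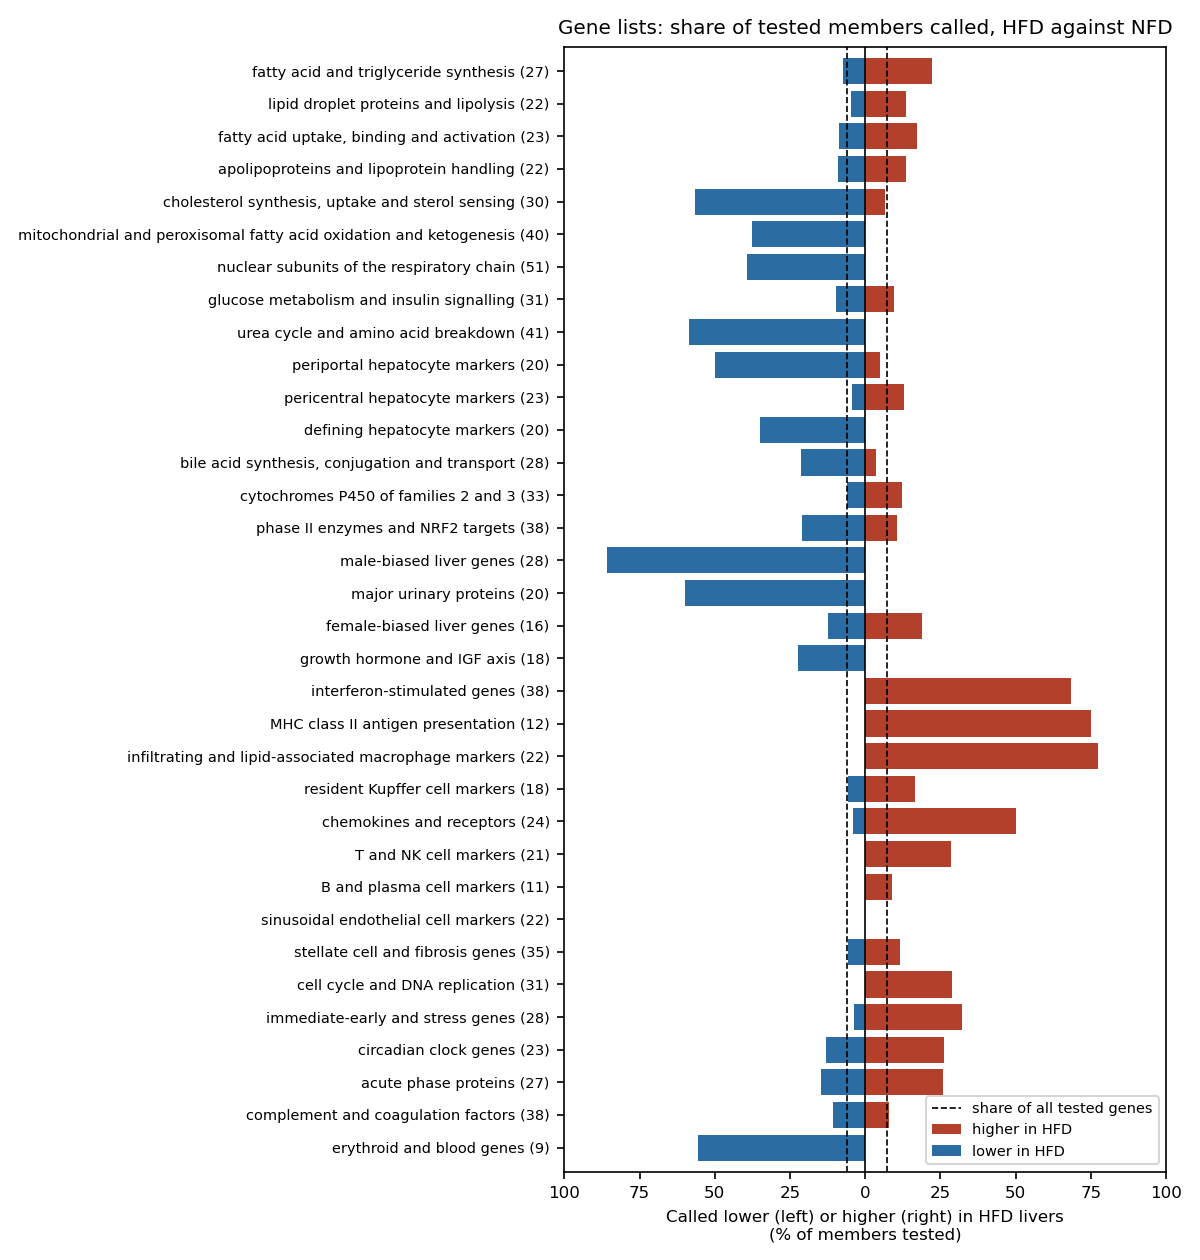
Share of the tested members of each gene list called lower (blue, left of 0) or higher (red, right of 0) in HFD than in NFD livers, in percent, with the number tested in brackets. Dashed lines mark the shares among all genes tested, 5.96% lower and 7.19% higher. Bars of the interferon, MHC class II and macrophage lists reach 68.4% to 77.3% on the right, and those of male-biased genes 85.7% on the left.

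Lipoprotein lipase (Lpl; ENSMUSG00000015568, GRCm39 chromosome 8, 69284603 to 69360100), which frees fatty acids from circulating triglyceride, rose in HFD livers with Cd36, Cidec and Pparg, while most genes of fatty acid uptake and lipid droplets were not called. Lpl had 409.8, 257, 343, 420.2 and 469.9 CPM in HFD livers, against 50.4, 44.5, 41.6, 32.7 and 26.0 CPM in NFD livers. Every HFD liver lay far above every NFD liver (log2 fold change 3.28 ± 0.24 SE, adjusted p = 3.67e-08). Cd36, a fatty acid transporter of the cell surface, had 38.5, 42.6, 75.4, 68.8 and 46.4 CPM in HFD livers, against 10.6, 13.9, 11.2, 11.3 and 5.17 CPM in NFD livers, again without overlap (log2 fold change 2.37 ± 0.25 SE, adjusted p = 3.74e-06). Cidec, a droplet protein that fuses small fat droplets into large ones, had 20.02, 18.0, 31.9, 32.8 and 17.0 CPM in HFD livers, against 1.20, 2.80, 3.12, 3.67 and 2.59 CPM in NFD livers (log2 fold change 3.15 ± 0.31 SE, adjusted p = 2.59e-06). Pparg, the nuclear receptor that drives fat storage genes, had 8.25, 6.67, 11.7, 12.6 and 9.81 CPM in HFD livers, against 5.91, 4.38, 4.001, 2.29 and 5.76 CPM in NFD livers, and the lowest HFD liver stood just above the highest NFD liver (log2 fold change 1.15 ± 0.27 SE, adjusted p = 0.00746).

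Among 22 tested genes of lipid droplets and lipolysis (of 23 listed), Cidec, Lpl and Hilpda rose and Lipe, the hormone-sensitive lipase, fell. Of 23 genes of fatty acid uptake and binding, Lpl, Cd36, Vldlr and Fabp4 rose, and the hepatic lipase Lipc and the lipoprotein lipase inhibitor Angptl4 fell. The median log2 fold changes of these lists were 0.46 and 0.12, and in each list 2 of the risers kept their call in every fit that left out 1 library. Lpl and Fabp4 are also on the list of macrophage markers given below, and the part of macrophages in their levels was not tested. Hilpda lost its call when any 1 of 6 libraries was left out (adjusted p up to 0.0823, without NFD replicate 2). Lipe lost its call when any 1 of 4 libraries was left out (adjusted p up to 0.0610, without HFD replicate 5). Vldlr lost its call when any 1 of 6 libraries was left out (adjusted p up to 0.0866, without HFD replicate 5). Fabp4 lost its call when any 1 of 6 libraries was left out (adjusted p up to 0.0855, without HFD replicate 4). Plin2, the main coat protein of droplets in hepatocytes, did not pass the test and had 83.7, 86.0, 96.2, 108 and 34.9 CPM in HFD livers, against 131, 213, 108, 105 and 125 CPM in NFD livers (log2 fold change -0.74 ± 0.27 SE, adjusted p = 0.0683), with HFD replicate 5 lowest and NFD replicate 2 highest. DESeq2 called it lower (adjusted p = 0.0400), as did edgeR without NFD replicate 4 (adjusted p = 0.0469). Cidea, a relative of Cidec that normal liver hardly expresses, had 0, 0.153, 3.99, 3.66 and 0.270 CPM in HFD livers, against 0 CPM in all 5 NFD livers. It was thus detected in 4 HFD livers, 2 of them near 4 CPM, and not called (adjusted p = 0.0801). DESeq2 called it higher (adjusted p = 0.00110), as did edgeR with the replicate block (adjusted p = 0.00216).

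Some of these genes are also active in fat cells. The fat cell hormones adiponectin (Adipoq) and leptin (Lep) had 19 and 11 counts in HFD replicate 5 and 0 in the other 4 HFD libraries, and in NFD libraries Adipoq had at most 2 counts and Lep 0. The 17 adipocyte markers listed summed to 365 to 805 CPM in HFD livers and 468 to 995 CPM in NFD livers, with overlap. Of the 10 tested, Pparg, Cidec and Fabp4 rose and Lipe fell. HFD replicates 3 and 4 had the highest levels of Cd36 and Cidec, while Lpl was highest in HFD replicate 5. Without that library the log2 fold change of Lpl was 3.20. The part of fat cells in the levels of these genes, Lpl included, was not tested.

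Within fatty acid synthesis, a desaturase and elongases rose. Scd1, which puts the double bond into stearate, had 5295, 2818, 8011, 5218 and 3270.2 CPM in HFD livers, against 1028, 1062, 1326, 1663 and 1242 CPM in NFD livers (log2 fold change 1.96 ± 0.31 SE, adjusted p = 3.71e-04), so that each HFD liver exceeded the highest NFD liver. Srebf1, the transcription factor of lipid synthesis, had 31.3, 29.1, 37.7, 32.7 and 32.5 CPM in HFD livers, against 15.5, 12.6, 15.4, 19.3 and 7.64 CPM in NFD livers, also without overlap (log2 fold change 1.21 ± 0.23 SE, adjusted p = 0.00140). Elovl6, an elongase, rose as well, by 1.23 ± 0.29 (SE) on the log2 scale (adjusted p = 0.00731), although HFD replicate 2 lay inside the NFD range. Acly, which supplies cytosolic acetyl-CoA, went the other way and averaged 14.3 ± 4.55 CPM in HFD livers and 29.0 ± 8.90 CPM in NFD livers (SD, n = 5 each), a log2 change of -1.02 (adjusted p = 0.00833). Fasn, the fatty acid synthase, had 21.9, 21.0, 36.3, 38.7 and 36.9 CPM in HFD livers, against 44.8, 27.8, 28.0, 28.8 and 16.0 CPM in NFD livers, with the groups overlapping (log2 fold change 0.09 ± 0.27 SE, adjusted p = 0.859). In all, 6 of 27 tested genes of fatty acid and triglyceride synthesis rose and 2 fell, with a median of 0.41. The other risers were Scd2, Elovl1 and Elovl5, and the other gene that fell was Acss2. Of these, Elovl5 lost its call without HFD replicate 3 (adjusted p = 0.0535), Acss2 lost its call without NFD replicate 3 (adjusted p = 0.0548) and Elovl1 lost its call when any 1 of 4 libraries was left out (adjusted p up to 0.0782, without NFD replicate 3). Scd2 lost its call when any 1 of 7 libraries was left out (adjusted p up to 0.0797, without HFD replicate 5). Without HFD replicate 3 the risers were the 3 genes Scd1, Srebf1 and Elovl6.

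Among apolipoproteins and lipoprotein proteins, 3 of 22 rose and 2 fell (13.6% and 9.09%, against 7.19% and 5.96% of all genes). Apoa4, an apolipoprotein of triglyceride-rich particles, had 677, 353, 720.2, 1075 and 723 CPM in HFD livers, against 61.0, 99.2, 45.0, 48.7 and 36.3 CPM in NFD livers, with no overlap (log2 fold change 3.61 ± 0.37 SE, adjusted p = 3.34e-06). Pltp, the phospholipid transfer protein, rose (log2 fold change 1.32 ± 0.26 SE, adjusted p = 0.00172), as did Apoc2, the cofactor of lipoprotein lipase. Apom, a carrier of sphingosine 1-phosphate in HDL, had 6.94, 9.47, 4.16, 5.22 and 3.13 CPM in HFD livers, against 27.4, 21.1, 19.2, 16.3 and 25.7 CPM in NFD livers and fell (log2 fold change -1.93 ± 0.29 SE, adjusted p = 2.45e-04). Lcat, the enzyme that esterifies cholesterol on HDL, fell too, but Lcat lost its call when any 1 of 4 libraries was left out (adjusted p up to 0.0686, without HFD replicate 4).

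Cholesterol synthesis was lower along most of its pathway. Of the 30 genes listed for cholesterol synthesis, uptake and sterol sensing, all of which were tested, 17 fell, 2 rose and the median was -0.92. Their summed level was 409 to 622 CPM in HFD livers and 599 to 825 CPM in NFD livers, with HFD replicate 2 inside the NFD range. Idi1, the isomerase that makes the building block of sterols, had 2.72, 1.27, 3.46, 2.25 and 1.00 CPM in HFD livers, against 16.8, 9.43, 20.1, 9.72 and 53.6 CPM in NFD livers. Its HFD values were all below its NFD values, and NFD replicate 5 was by far the highest (log2 fold change -3.36 ± 0.46 SE, adjusted p = 1.50e-04). Fdps, which joins these units into farnesyl diphosphate (ENSMUSG00000059743, GRCm39 chromosome 3, 89000888 to 89019213), had 8.35, 3.82, 5.48, 6.53 and 4.60 CPM in HFD livers, against 44.1, 17.1, 40.4, 12.3 and 47.0 CPM in NFD livers, without overlap (log2 fold change -2.49 ± 0.33 SE, adjusted p = 8.21e-05). Cyp51, the lanosterol demethylase, had 0.101, 1.27, 3.24, 1.15 and 1.58 CPM in HFD livers, against 10.3, 6.69, 9.49, 5.88 and 12.9 CPM in NFD livers and fell in the same way (log2 fold change -2.55 ± 0.40 SE, adjusted p = 3.67e-04).

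Stard4, a carrier of cholesterol inside the cell, had 3.62, 4.78, 5.30, 5.07 and 2.74 CPM in HFD livers, against 19.6, 13.5, 22.0, 9.63 and 43.9 CPM in NFD livers, and every HFD liver lay below the lowest NFD liver (log2 fold change -2.32 ± 0.33 SE, adjusted p = 1.50e-04). Mvd and Sqle were among the other genes that fell. Both genes that rose encode the pair of transporters that exports sterols into bile. Abcg8 had 17.1, 38.6, 27.5, 22.1 and 18.7 CPM in HFD livers, against 13.7, 12.4, 10.3, 10.9 and 5.05 CPM in NFD livers, with no overlap (log2 fold change 1.24 ± 0.27 SE, adjusted p = 0.00426). Abcg5 averaged 82.2 ± 45.5 CPM in HFD livers and 39.5 ± 13.3 CPM in NFD livers (SD, n = 5 each), with HFD replicate 2 far above the other HFD livers (log2 fold change 1.06 ± 0.32 SE, adjusted p = 0.0317). Abcg5 lost its call when any 1 of 6 libraries was left out (adjusted p up to 0.0990, without HFD replicate 2). Abcg5 was also not called once the mitochondrial share entered the fit (adjusted p = 0.0525).

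Hmgcs1, the enzyme that makes the HMG-CoA used by the pathway, is shown with its promoter because that window holds a sterol response motif. Its levels were 55.2, 91.7, 99.4, 97.3 and 93.6 CPM in HFD livers, against 181, 105, 198, 175 and 107 CPM in NFD livers, without overlap (log2 fold change -0.81 ± 0.24 SE, adjusted p = 0.0306). Its call was close to the threshold, and Hmgcs1 lost its call when any 1 of 5 libraries was left out (adjusted p up to 0.0830, without NFD replicate 3). The sequence gives the 250 bases before the RefSeq gene start (RefSeq promoter table of GRCm38.p6, found once by exact match in GRCm39 at chr13:120151637-120151886, plus strand), with the motif TCACNCCAC in capitals, starting 137 bases before the gene start.
Hmgcs1: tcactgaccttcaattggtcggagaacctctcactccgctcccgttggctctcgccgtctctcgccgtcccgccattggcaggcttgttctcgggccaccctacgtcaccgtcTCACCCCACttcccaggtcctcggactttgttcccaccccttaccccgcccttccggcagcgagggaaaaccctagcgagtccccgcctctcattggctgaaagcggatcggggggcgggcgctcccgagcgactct

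Of the cholesterol genes, 21 had a 300-base window (250 bases before to 50 after the start) in that table, and 1 of them (4.76%) held the motif on either strand, against 1.44% of 27025 gene symbols. A match describes the letters only.

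Fatty acid oxidation genes were lower. None of 40 listed genes rose and 15 fell (median -0.63). Etfdh, which passes electrons from acyl-CoA dehydrogenases to ubiquinone, had 28.0, 45.3, 33.2, 36.5 and 21.7 CPM in HFD livers, against 68.3, 95.8, 79.9, 71.7 and 126 CPM in NFD livers, without overlap (log2 fold change -1.42 ± 0.22 SE, adjusted p = 3.49e-04). Acaa2, the thiolase of mitochondrial beta-oxidation, had 106, 124, 95.7, 97.4 and 60.2 CPM in HFD livers, against 219.7, 269, 282, 145 and 314 CPM in NFD livers (log2 fold change -1.35 ± 0.23 SE, adjusted p = 7.75e-04). Its groups did not overlap either. The carnitine carrier Slc25a20 fell by 0.90 on the log2 scale (adjusted p = 0.00121) and Hadhb of the trifunctional protein by 0.95 (adjusted p = 0.00164). Ppara, the nuclear receptor that activates these genes, named after its values were seen, had 6.14, 8.50, 6.70, 7.94 and 4.52 CPM in HFD livers, against 13.4, 14.3, 19.6, 11.1 and 13.4 CPM in NFD livers (log2 fold change -1.09 ± 0.22 SE, adjusted p = 0.00288). All HFD values lay below all NFD values. Its target Cyp4a10 had 90.3, 595, 208, 205 and 191 CPM in HFD livers, against 489, 907, 736, 1008 and 532 CPM in NFD livers (log2 fold change -1.51 ± 0.38 SE, adjusted p = 0.0126), with HFD replicate 2 inside the NFD range.

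Other members were not called, among them Cpt1a, the gate for fatty acids into mitochondria, which was named after its values were seen (log2 fold change 0.47 ± 0.19 SE, adjusted p = 0.108). The count of oxidation genes that fell was 8 in the fit of the 10 HFD and NFD libraries alone, 9 without HFD replicate 5, 8 without NFD replicate 2 and 9 without the filter on low counts. Hacl1, a peroxisomal lyase of fatty acid alpha-oxidation outside the list and named after its values were seen, had 11.5, 22.5, 13.8, 19.1 and 10.7 CPM in HFD livers, against 90.3, 138, 167, 87.7 and 131 CPM in NFD livers, far apart (log2 fold change -2.98 ± 0.27 SE, adjusted p = 8.77e-07).

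Nuclear genes for the respiratory chain were lower too, with 20 of 51 called down and 0 up (median -0.50). Ndufv1 of complex I had 23.1, 31.5, 19.8, 20.5 and 18.2 CPM in HFD livers, against 57.8, 65.4, 60.4, 37.9 and 49.8 CPM in NFD livers (log2 fold change -1.26 ± 0.20 SE, adjusted p = 3.95e-04). Atp5f1a, the alpha subunit of ATP synthase, had 113, 132, 117, 108 and 58.6 CPM in HFD livers, against 279, 327, 380.3, 149.8 and 374 CPM in NFD livers (log2 fold change -1.51 ± 0.25 SE, adjusted p = 4.71e-04). Atp5mc3 of its membrane ring fell by 1.60 (adjusted p = 5.25e-04). NFD replicate 4 was the lowest NFD liver for all 3 genes, and for Atp5mc3 it lay inside the HFD range. Of the 13 protein genes of the mitochondrial genome, edgeR called 0, with 2 at an unadjusted p under 0.05 (mt-Atp6 and mt-Co2, median of the 13 -0.49), and DESeq2 called 1. All transcripts of the mitochondrial genome took 40.97% to 58.5% of the counts in HFD and 40.3% to 57.7% in NFD libraries.

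Slc2a2 rose and Fbp1 and Pck1 fell in HFD livers, while few genes of glucose metabolism were called. Slc2a2, the glucose transporter of hepatocytes, had 174, 138, 203, 173 and 219.7 CPM in HFD livers, against 67.1, 73.8, 97.7, 89.2 and 46.5 CPM in NFD livers, with the lowest HFD liver above the highest NFD liver (log2 fold change 1.28 ± 0.23 SE, adjusted p = 0.00109). Fbp1, a gluconeogenic phosphatase, had 59.5, 71.5, 60.5, 57.0 and 26.0 CPM in HFD livers, against 204, 185, 221, 109 and 212 CPM in NFD livers (log2 fold change -1.76 ± 0.27 SE, adjusted p = 2.60e-04). Pck1, which starts gluconeogenesis from oxaloacetate, averaged 1030.0 ± 85.4 CPM in HFD livers and 2106 ± 314 CPM in NFD livers (SD, n = 5 each), without overlap (log2 fold change -1.03 ± 0.21 SE, adjusted p = 0.00264). In all, 3 of 31 tested glucose genes rose and 3 fell (9.68% each, against 7.19% and 5.96% of all genes), with Trib3 also among the risers and Ppp1r3c among the genes that fell. Trib3 lost its call when any 1 of 3 libraries was left out (adjusted p up to 0.0545, without HFD replicate 3).

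Amino acid breakdown and the urea cycle were lower as a group. Of 41 genes, 24 fell and 0 rose, with a median of -0.83, and 19 of the 24 kept their call in every fit that left out 1 library. Got1, the cytosolic aspartate aminotransferase (ENSMUSG00000025190, GRCm39 chromosome 19, 43488188 to 43513674), had 24.5, 31.4, 16.9, 19.2 and 14.7 CPM in HFD livers, against 109, 124, 183, 64.3 and 127 CPM in NFD livers. The 2 groups were separated by more than the whole HFD range (log2 fold change -2.51 ± 0.32 SE, adjusted p = 4.48e-05). Gls2, the liver glutaminase, had 44.9, 83.1, 56.6, 48.6 and 65.1 CPM in HFD livers, against 172, 182, 232, 166 and 202 CPM in NFD livers (log2 fold change -1.68 ± 0.20 SE, adjusted p = 1.72e-05). Tat, the tyrosine aminotransferase, had 78.4, 121, 110.3, 65.6 and 99.7 CPM in HFD livers, against 345, 359.9, 443, 316 and 242 CPM in NFD livers (log2 fold change -1.84 ± 0.23 SE, adjusted p = 2.81e-05). In both genes HFD livers were all lower. Asl, the argininosuccinate lyase of the urea cycle, named after its values were seen, had 119, 310.1, 127, 101.3 and 113 CPM in HFD livers, against 658, 646, 875, 451 and 394 CPM in NFD livers (log2 fold change -1.97 ± 0.31 SE, adjusted p = 3.71e-04), with HFD replicate 2 the highest of its group. Cbs, the first enzyme of transsulfuration, averaged 62.0 ± 13.05 CPM in HFD livers and 179.9 ± 22.8 CPM in NFD livers (SD, n = 5 each), without overlap (log2 fold change -1.54 ± 0.21 SE, adjusted p = 8.23e-05).

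Several of these genes mark periportal hepatocytes, those at the blood inflow of the lobule. Of 20 periportal markers, 10 fell and Spp1 rose (median -0.74). Spp1 lost its call when any 1 of 7 libraries was left out (adjusted p up to 0.124, without HFD replicate 5). Their summed level was 4341 to 5159 CPM in HFD livers and 7084 to 8853 CPM in NFD livers, without overlap. Of 23 pericentral markers, 3 rose (Slc1a4, Aldh3a2 and Rnf43) and Cyp2c29 fell (median 0.45), while Cyp2c29 lost its call without HFD replicate 5 (adjusted p = 0.0502). Aldh3a2, a fatty aldehyde dehydrogenase, had 302, 237, 373, 307 and 213 CPM in HFD livers, against 58.0, 108, 90.7, 103 and 50.2 CPM in NFD livers (log2 fold change 1.81 ± 0.24 SE, adjusted p = 4.75e-05). Slc1a4, a neutral amino acid transporter, rose by 2.41 ± 0.39 (SE) on the log2 scale (adjusted p = 3.80e-04). Neither gene's values overlapped between groups. The pericentral P450 Cyp2e1 was not called (log2 fold change -0.61 ± 0.30 SE, adjusted p = 0.188). It averaged 687 ± 391 CPM in HFD livers and 1051 ± 288 CPM in NFD livers (SD, n = 5 each), and without HFD replicate 2, its highest HFD liver, it fell (adjusted p = 0.0105). Of 20 defining markers of hepatocytes in general, 7 fell (35%, against 5.96% of all genes) and 0 rose, with a median of -0.40. Their sum was 22455 to 42287 CPM in HFD livers and 30713 to 50749 CPM in NFD livers, with overlap. The part of this in the falls of other hepatocyte genes was not tested. In bulk tissue, fewer cells of a type and less RNA per cell cannot be told apart, and this holds for every cell type named here.

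**Figure D2:**
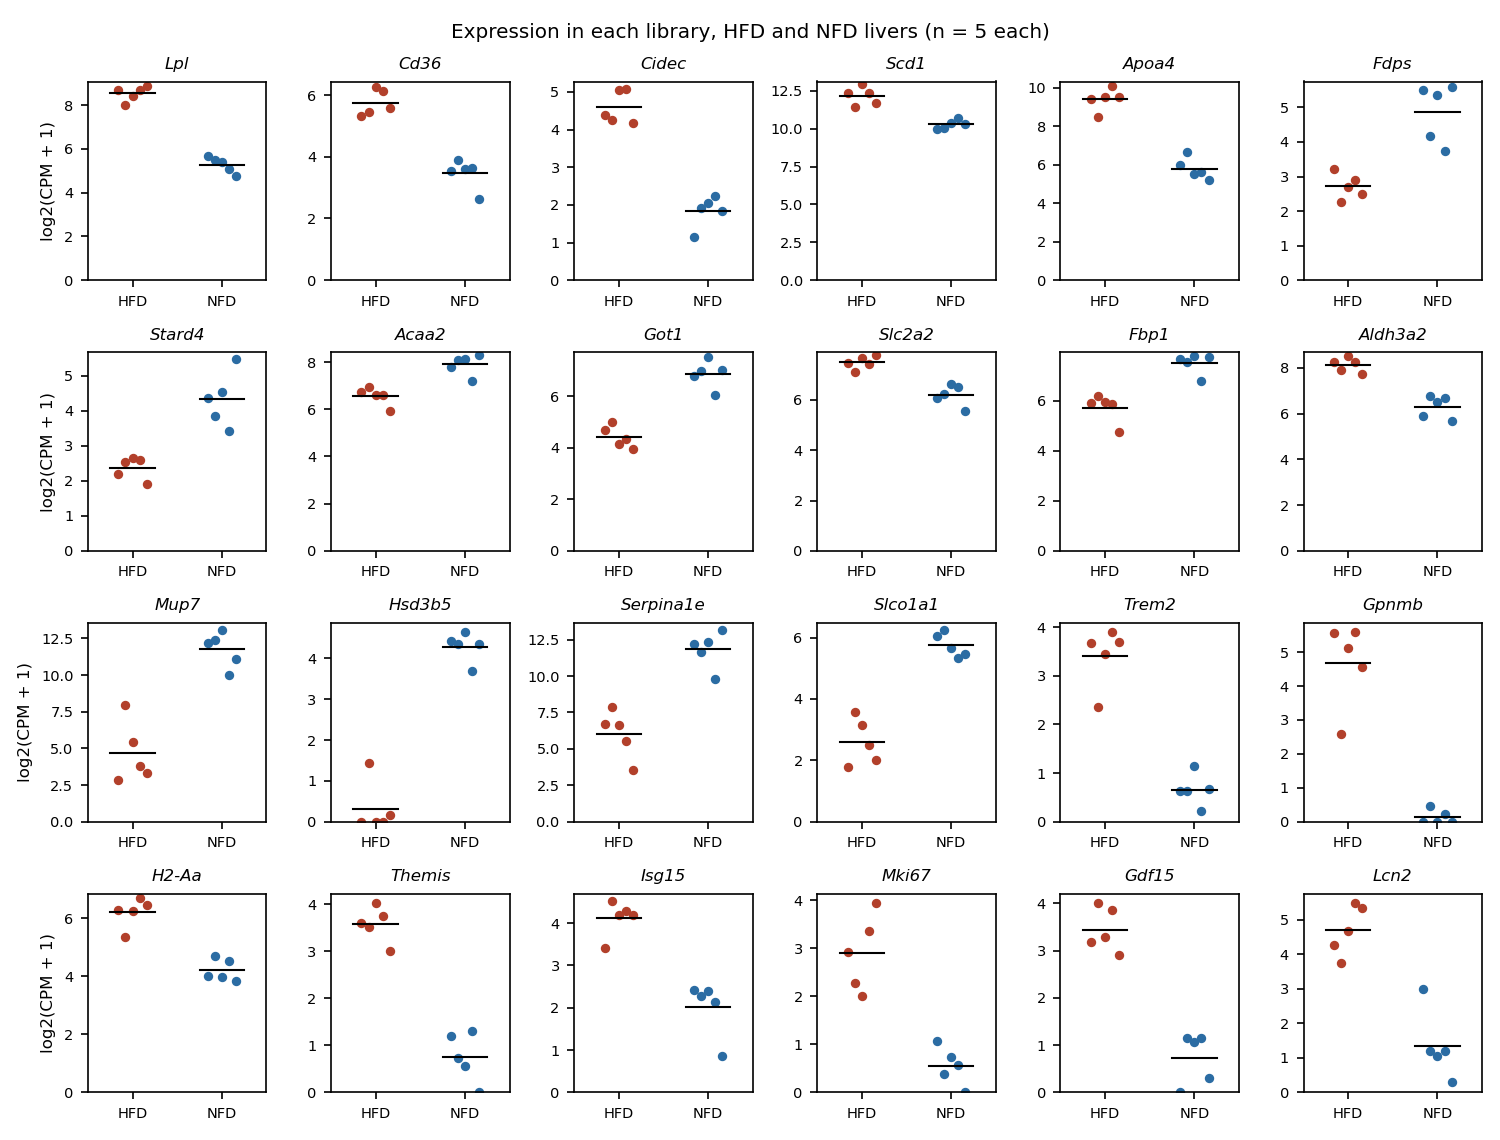
Expression of 24 genes in each library as log2(CPM + 1), HFD livers in red at the left and NFD livers in blue at the right of each panel (n = 5 each, replicates 1 to 5 from left to right, horizontal bars are means). The groups do not overlap in these panels, and HFD replicate 2 is the HFD liver nearest the NFD livers for Mup7, Trem2 and Gpnmb.

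Genes that male mouse livers express more strongly fell almost throughout. Of 28 listed male-biased genes, 24 fell and 0 rose (median -2.21). Of the 24, 16 kept their call in every fit that left out 1 library. Hsd3b5, a steroid dehydrogenase of male mouse liver, had 0, 1.73, 0, 0 and 0.116 CPM in HFD livers, against 20.5, 19.3, 23.9, 11.9 and 19.5 CPM in NFD livers. It was at 0 in 3 HFD livers and above 11 CPM in every NFD liver (log2 fold change -5.62 ± 1.14 SE, adjusted p = 0.00698). Serpina1e, a member of the antitrypsin cluster, had 102, 228, 97.2, 44.9 and 10.5 CPM in HFD livers, against 4781, 3290.1, 5136, 868 and 9155 CPM in NFD livers, with a gap between the groups despite the wide NFD range (log2 fold change -5.59 ± 0.92 SE, adjusted p = 0.00152). Slco1a1, an organic anion uptake transporter, had 2.41, 10.8, 7.80, 4.65 and 3.01 CPM in HFD livers, against 65.0, 75.2, 49.2, 39.4 and 43.6 CPM in NFD livers (log2 fold change -3.23 ± 0.41 SE, adjusted p = 9.38e-05).

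Elovl3, an elongase of very long fatty acids that is named after its values were seen, had 43.8, 32.5, 37.9, 23.5 and 13.2 CPM in HFD livers, against 152, 200.2, 143, 93.0 and 566 CPM in NFD livers (log2 fold change -2.94 ± 0.49 SE, adjusted p = 0.00121). C8b, a complement component, had 9.35, 18.9, 11.7, 13.9 and 11.6 CPM in HFD livers, against 74.9, 68.8, 64.4, 22.9 and 70.7 CPM in NFD livers (log2 fold change -2.20 ± 0.27 SE, adjusted p = 2.90e-05). Gstp1, a glutathione transferase, had 282, 354, 276, 338 and 271 CPM in HFD livers, against 2119.8, 1525, 1777, 433 and 1248 CPM in NFD livers (log2 fold change -2.22 ± 0.35 SE, adjusted p = 3.70e-04). In all 3 genes the HFD livers lay below the NFD livers, and NFD replicate 4 was the lowest NFD liver. Serpina3k, a protease inhibitor, fell by 1.90 on the log2 scale (adjusted p = 4.32e-04).

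The major urinary proteins, pheromone carriers made in bulk by male mouse liver and encoded in a cluster on chromosome 4, showed large falls. Mup7 (ENSMUSG00000073842, GRCm39 chromosome 4, 60066445 to 60070490) had 6.24, 245, 41.4, 12.95 and 8.85 CPM in HFD livers, against 4731, 5437, 8447, 1050.2 and 2194 CPM in NFD livers. Mup15 had 2.31, 56.0, 18.7, 5.90 and 4.44 CPM in HFD livers, against 768, 696, 1837, 142 and 167 CPM in NFD livers. The highest HFD liver, replicate 2, was well below the lowest NFD liver, replicate 4, for both (Mup7: log2 fold change -6.12 ± 1.33 SE, adjusted p = 0.01004; Mup15: log2 fold change -5.36 ± 1.18 SE, adjusted p = 0.0110). Mup1 averaged 47.6 ± 61.4 CPM in HFD livers and 964 ± 633 CPM in NFD livers (SD, n = 5 each; log2 fold change -4.34 ± 0.99 SE, adjusted p = 0.0129). Of 20 tested members of 22, 12 fell and 0 rose (median -2.08), and without HFD replicate 4 the count was 7. Mup20, the pheromone darcin, was 1 of 2 tested members with a positive log2 fold change. It had 2002, 1497, 2432, 2940.4 and 3242 CPM in HFD livers, against 988, 1424, 1516, 684 and 1409 CPM in NFD livers (log2 fold change 1.01 ± 0.36 SE, adjusted p = 0.0657). It was not called, though DESeq2 called it higher (adjusted p = 0.0229), as did edgeR with no filter on low counts (adjusted p = 0.0374) or without HFD replicate 2 (adjusted p = 0.0391). The family summed to 5495 to 20431 CPM in HFD livers and 13064 to 61564 CPM in NFD livers, so that HFD replicate 2 exceeded NFD replicates 4 and 5. Members of this family and of the antitrypsin cluster are near-identical in sequence, and how shared reads were counted is not given in the sources used here, so the split between members is uncertain.

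Of 16 tested female-biased genes (29 in the table), 3 rose and 2 fell (Cyp4a10 and Acot3), with a median of 0.25. The 29 genes summed to 164 to 839 CPM in HFD livers and 597 to 1528 CPM in NFD livers, lower in HFD livers with overlap. Cyp4a10 made up most of the mean sums, 258 of 397 CPM in HFD livers and 734 of 1026 CPM in NFD livers. Acot3 lost its call when any 1 of 8 libraries was left out (adjusted p up to 0.102, without HFD replicate 4). Slc22a27, an organic anion transporter of female liver, had 1.91, 1.22, 2.45, 1.78 and 1.85 CPM in HFD livers, against 0, 0, 0.0678, 0.408 and 0 CPM in NFD livers (log2 fold change 4.18 ± 0.66 SE, adjusted p = 3.53e-04). Ntrk2, a neurotrophin receptor, had 4.43, 1.88, 7.40, 4.02 and 4.91 CPM in HFD livers, against 0.0923, 0, 0.746, 0.980 and 0 CPM in NFD livers (log2 fold change 3.57 ± 0.63 SE, adjusted p = 8.58e-04). Neither gene's groups overlapped. Cyp2a4, a P450 of female liver, had 2.62, 1.83, 1.80, 7.26 and 10.5 CPM in HFD livers, against 0 CPM in all 5 NFD livers, at least 110-fold higher in HFD livers with a floor of 3 counts over the NFD group (adjusted p = 0.0256). Cyp2a4 lost its call without HFD replicate 4 (adjusted p = 0.0519), and its call also ended without the filter on low counts (adjusted p = 0.0525). Its near-identical neighbour Cyp2a5, named after its values were seen, had 1208 to 12507 counts in HFD libraries and 271 to 4553 in NFD libraries, and how reads that fit both genes were counted is not given either.

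In the growth hormone and IGF axis fewer genes were called. Of 18 tested genes, 0 rose and 4 fell (median -0.35). Egfr, the EGF receptor, had 20.3, 51.5, 28.3, 25.5 and 18.8 CPM in HFD livers, against 102, 94.7, 47.1, 44.6 and 55.7 CPM in NFD livers, with HFD replicate 2 inside the NFD range (log2 fold change -1.25 ± 0.28 SE, adjusted p = 0.00538). Igfals lost its call when any 1 of 8 libraries was left out (adjusted p up to 0.126, without NFD replicate 2) and Socs2 lost its call when any 1 of 8 libraries was left out (adjusted p up to 0.106, without NFD replicate 2). Onecut1 lost its call when any 1 of 5 libraries was left out (adjusted p up to 0.122, without NFD replicate 5). With HFD replicate 4 or NFD replicate 2 left out, Egfr was the 1 gene called. Igf1, the growth factor that growth hormone induces, was not called, with 652, 604, 742, 666 and 639.5 CPM in HFD livers, against 1256, 999, 1041, 773 and 593 CPM in NFD livers (log2 fold change -0.50 ± 0.22 SE, adjusted p = 0.133). DESeq2 called it lower (adjusted p = 0.0406), as did edgeR without NFD replicate 5 (adjusted p = 0.0431).

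**Figure D3:**
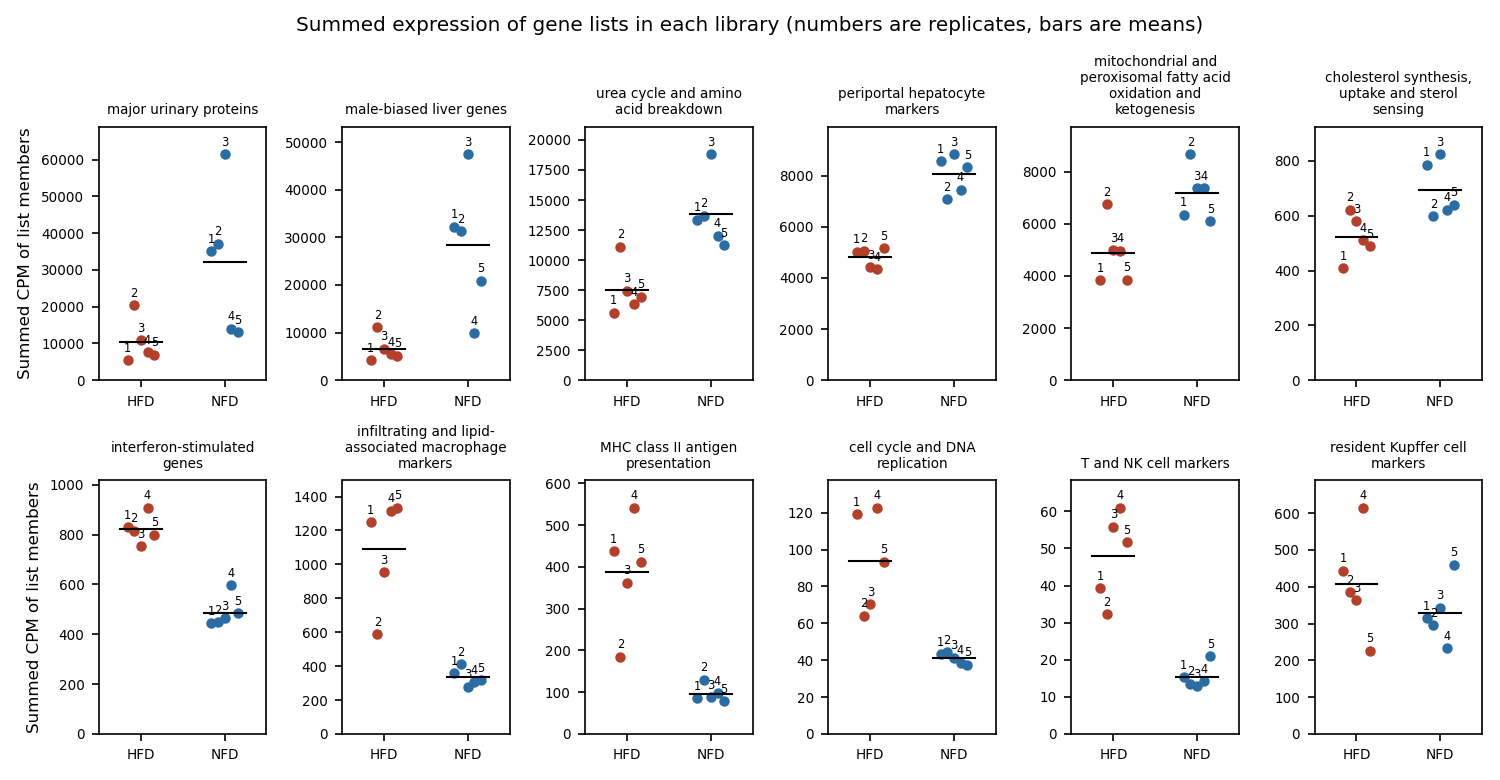
Summed CPM of the members of 12 gene lists in each library, HFD livers in red and NFD livers in blue (n = 5 each, numbers are replicates, bars are means, axes start at 0). HFD replicate 2 is the highest HFD liver for the major urinary proteins, 20431 CPM, and the lowest for macrophage and MHC class II markers.

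Markers of recruited and lipid-associated macrophages rose together. Of 22 markers, 17 rose and 0 fell, with a median of 2.40. Their sum was 588 to 1334 CPM in HFD livers and 278 to 411 CPM in NFD livers. These sums did not overlap, but the gap rested on Lpl, itself a listed marker. Lpl made up 257 of the 588 CPM in HFD replicate 2 and 44.5 of the 411 CPM in NFD replicate 2. Without Lpl, the sum of HFD replicate 2 lay below that of NFD replicate 2. Trem2, the lipid receptor that defines these cells (ENSMUSG00000023992, GRCm39 chromosome 17, 48653429 to 48661175), had 11.8, 4.12, 9.90, 13.9 and 11.97 CPM in HFD livers, against 0.554, 0.548, 1.22, 0.163 and 0.588 CPM in NFD livers. HFD replicate 2 was the lowest HFD liver and still above every NFD liver (log2 fold change 4.03 ± 0.41 SE, adjusted p = 3.34e-06). Gpnmb, a glycoprotein of lipid-laden macrophages, had 46.6, 4.99, 33.9, 46.9 and 22.4 CPM in HFD livers, against 0, 0.365, 0, 0.163 and 0 CPM in NFD livers (log2 fold change 7.88 ± 0.84 SE, adjusted p = 4.48e-05), and was near 0 in NFD livers. Mmp12, the macrophage elastase, named after its values were seen, had 21.2, 5.80, 25.8, 31.7 and 9.62 CPM in HFD livers, against 0.185, 0, 0.0678, 0.245 and 1.29 CPM in NFD livers (log2 fold change 6.0004 ± 0.75 SE, adjusted p = 1.50e-04). Capg, an actin-capping protein, rose by 2.42 ± 0.34 (SE) (adjusted p = 1.20e-04). Ccr2, the chemokine receptor that brings monocytes to tissue, had 9.35, 3.72, 7.80, 7.42 and 15.4 CPM in HFD livers, against 1.94, 1.28, 1.56, 1.39 and 1.76 CPM in NFD livers (log2 fold change 2.47 ± 0.36 SE, adjusted p = 1.48e-04). Cx3cr1, a chemokine receptor of monocytes named after its values were seen, had 20.4, 4.07, 7.45, 17.2 and 29.2 CPM in HFD livers, against 3.32, 1.95, 1.22, 1.14 and 1.65 CPM in NFD livers (log2 fold change 3.08 ± 0.46 SE, adjusted p = 3.71e-04). Both were without overlap.

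Few markers of resident Kupffer cells were called. Of 18, 3 rose (Csf1r, Id3 and Il18bp) and C6 fell (median 0.26), and their sum was 226 to 615 CPM in HFD livers and 233 to 460.3 CPM in NFD livers, with overlap. Clec4f, the lectin found on Kupffer cells alone in mice, had 39.5, 81.6, 46.9, 78.8 and 18.6 CPM in HFD livers, against 68.8, 52.9, 73.9, 45.1 and 30.9 CPM in NFD livers (log2 fold change -0.04 ± 0.35 SE, adjusted p = 0.965). Cd5l, a Kupffer cell secreted protein, had 148, 73.1, 90.5, 189.9 and 29.5 CPM in HFD livers, against 41.4, 29.0, 44.1, 26.7 and 79.7 CPM in NFD livers, with HFD replicate 5 near the lowest NFD liver (log2 fold change 1.27 ± 0.42 SE, adjusted p = 0.0527). It was called with HFD replicate 5 left out (adjusted p = 0.00944), with NFD replicate 5 left out (adjusted p = 0.0253), with HFD replicate 2 left out (adjusted p = 0.0448), with the mitochondrial share as a covariate (adjusted p = 0.0188) and by DESeq2 (adjusted p = 0.0149). Csf1r, the receptor for macrophage growth factor that all macrophages carry, had 29.5, 25.2, 28.3, 51.7 and 30.8 CPM in HFD livers, against 12.7, 14.1, 15.6, 18.8 and 15.4 CPM in NFD livers (log2 fold change 1.11 ± 0.21 SE, adjusted p = 0.00141), without overlap. Id3 lost its call when any 1 of 6 libraries was left out (adjusted p up to 0.113, without HFD replicate 5) and Il18bp lost its call when any 1 of 2 libraries was left out (adjusted p up to 0.0868, without HFD replicate 4). C6 lost its call when any 1 of 6 libraries was left out (adjusted p up to 0.107, without NFD replicate 2).

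Antigen presentation rose with the macrophage markers. Of 12 tested MHC class II genes (14 listed), 9 rose and 0 fell (median 1.87), and their sum was 185 to 542 CPM in HFD livers and 78.4 to 130.0 CPM in NFD livers, without overlap. H2-Aa, a class II chain, had 77.2, 40.0, 75.7, 104 and 87.7 CPM in HFD livers, against 15.1, 25.1, 14.6, 22.1 and 13.4 CPM in NFD livers (log2 fold change 2.08 ± 0.27 SE, adjusted p = 4.71e-05). Cd74, the invariant chain, had 180.4, 65.2, 141, 212 and 176 CPM in HFD livers, against 39.2, 51.5, 32.5, 32.9 and 27.8 CPM in NFD livers (log2 fold change 2.07 ± 0.29 SE, adjusted p = 1.06e-04). Ctss, the protease that cleaves it, had 33.5, 17.3, 36.5, 55.1 and 31.6 CPM in HFD livers, against 5.26, 4.69, 7.66, 3.67 and 4.70 CPM in NFD livers (log2 fold change 2.74 ± 0.31 SE, adjusted p = 1.36e-05). For all 3 genes HFD replicate 2 was the lowest HFD liver, and it was above every NFD liver. C1qb, a complement component made by macrophages, had 48.0, 24.8, 41.8, 66.9 and 42.9 CPM in HFD livers, against 9.60, 10.3, 13.4, 9.96 and 21.3 CPM in NFD livers (log2 fold change 1.80 ± 0.28 SE, adjusted p = 3.47e-04). C1qa and C1qc rose beside it.

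Chemokines rose too, with 12 of 24 tested genes up (31 listed) and Cxcl12 down, and a median of 1.75. Cxcl1, which draws neutrophils, had 4.83, 10.0, 10.3, 8.41 and 11.1 CPM in HFD livers, against 0.461, 0.122, 0.949, 0.245 and 0 CPM in NFD livers (log2 fold change 4.56 ± 0.47 SE, adjusted p = 3.34e-06). Ccl5, which draws T cells, had 7.54, 3.77, 13.6, 13.5 and 8.92 CPM in HFD livers, against 1.66, 0.791, 0.746, 0.572 and 1.18 CPM in NFD livers (log2 fold change 3.29 ± 0.40 SE, adjusted p = 2.90e-05). Cxcl9, induced by interferon gamma, had 5.43, 6.36, 8.02, 13.5 and 9.31 CPM in HFD livers, against 1.11, 1.83, 2.58, 3.84 and 1.53 CPM in NFD livers (log2 fold change 1.96 ± 0.33 SE, adjusted p = 5.52e-04). The groups of all 3 were apart. Ccl2 and Ccl4 were called as well, but Ccl2 lost its call when any 1 of 5 libraries was left out (adjusted p up to 0.0913, without HFD replicate 5) and Ccl4 lost its call when any 1 of 7 libraries was left out (adjusted p up to 0.111, without HFD replicate 3). Neutrophil markers were sparse, with 5 of 15 tested, of which Lcn2 was called.

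T and NK cell markers were low but detectable. Of 33 listed, 21 passed the filter on low counts, and 6 of these rose and 0 fell. The filter needs counts in as many libraries as a group holds, so markers near 0 in NFD livers can pass through another group. Such markers could rise but hardly fall, which holds for every list with members near 0 in NFD livers. The sum of all 33 was 32.3 to 61.0 CPM in HFD livers and 12.95 to 20.9 CPM in NFD livers. Themis, a signalling protein of T cells, had 11.2, 10.4, 15.2, 12.4 and 6.99 CPM in HFD livers, against 1.29, 0.669, 0.475, 1.47 and 0 CPM in NFD livers (log2 fold change 3.81 ± 0.46 SE, adjusted p = 3.51e-05), with a wide gap. Trac, the constant region of the T cell receptor alpha chain, had 0.604, 0.560, 1.80, 1.67 and 1.35 CPM in HFD livers, against 0, 0.183, 0.0678, 0.0816 and 0 CPM in NFD livers (log2 fold change 3.90 ± 0.75 SE, adjusted p = 0.00162). Trbc2 rose too, and so did Cd8a and Lck, of which Cd8a lost its call when any 1 of 4 libraries was left out (adjusted p up to 0.0981, without HFD replicate 5) and Lck lost its call when any 1 of 5 libraries was left out (adjusted p up to 0.0929, without HFD replicate 5). Themis averaged 11.2 CPM in HFD livers, against 1.20 CPM for Trac, 1.59 CPM for Cd8a and 1.59 CPM for Lck. HFD replicate 3 was the highest HFD liver for Themis, Trac and Ccl5. HFD replicate 5, the lowest for Themis, was the highest for Cd8a and Lck. The part of T cells in the level of Themis was not tested. In the fit of the 10 HFD and NFD libraries alone 3 markers were called (Ccl5, Themis and Trbc2), and Trac did not pass the filter there. Of 11 tested B and plasma cell markers, Cd22 rose and 0 fell, and Cd22 lost its call when any 1 of 3 libraries was left out (adjusted p up to 0.0688, without HFD replicate 4).

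**Figure D4:**
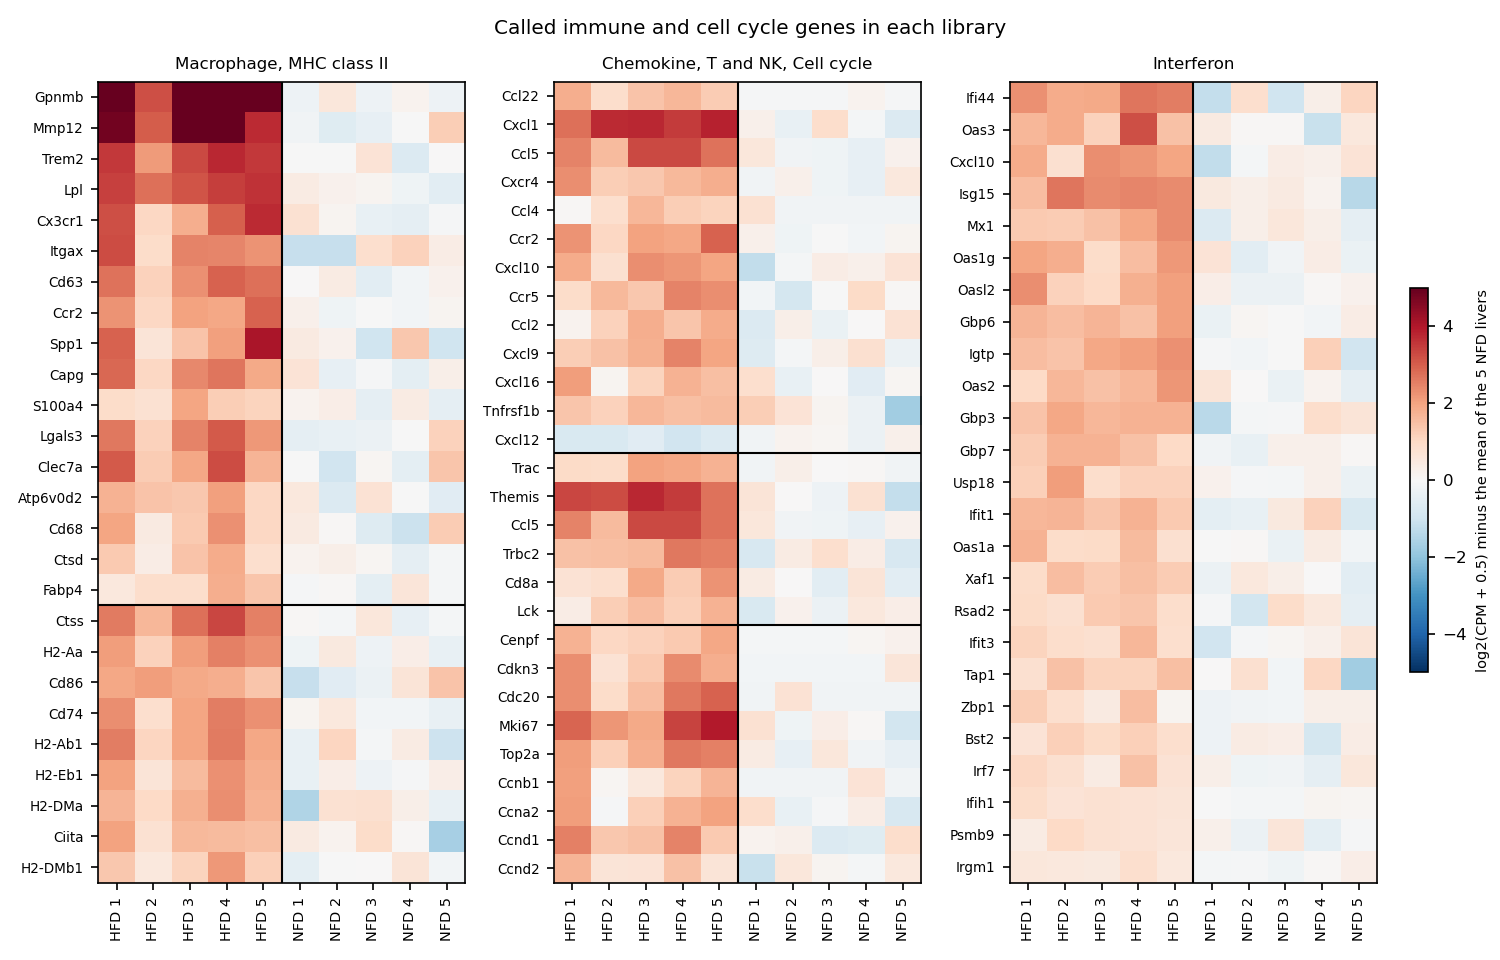
Called members of 6 gene lists in each library, as log2(CPM + 0.5) minus the mean of the 5 NFD livers, with HFD replicates 1 to 5 at the left and NFD replicates 1 to 5 at the right of each panel. Colours run from -5 to 5, so that larger values, such as some of Gpnmb and Mmp12, share the darkest red. HFD replicate 2 is the lowest HFD liver for 15 of 17 macrophage and 8 of 9 MHC class II genes, and for 5 of the 25 interferon genes drawn.

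Interferon-stimulated genes, which cells switch on to resist viruses, rose widely. Of 38 tested genes (40 listed), 26 rose and 0 fell, with a median of 1.09, and 18 of the 26 kept their call in every fit that left out 1 library. Their summed level was 753 to 908 CPM in HFD livers and 443 to 596 CPM in NFD livers, without overlap. For 22 of the 38 the groups did not overlap, against 8.09% of all genes. The sum was lowest in HFD replicate 3, while the macrophage and MHC class II sums were lowest in HFD replicate 2.

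Promoters of 3 genes are shown because interferon acts through an element of the form GAAA, any 2 bases and GAAA again. Each line gives the 250 bases before the RefSeq gene start with the motif in capitals on either strand (RefSeq promoter table of GRCm38.p6, each found once by exact match in GRCm39). The regions are chr4:156285276-156285525 (minus strand) for Isg15, chr3:142235847-142236096 (plus strand) for Gbp7 and chr5:121025677-121025926 (minus strand) for Oas1g. Overlapping copies in Isg15 start 78, 72 and 66 bases before the gene start, the copy in Gbp7, on the opposite strand, starts 53 bases before it, and those in Oas1g start 18 and 12 bases before it.
Isg15: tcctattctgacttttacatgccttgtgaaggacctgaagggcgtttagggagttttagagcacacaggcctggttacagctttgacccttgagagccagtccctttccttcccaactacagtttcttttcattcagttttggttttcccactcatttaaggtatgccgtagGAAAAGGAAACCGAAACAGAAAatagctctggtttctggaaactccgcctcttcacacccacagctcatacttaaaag
Gbp7: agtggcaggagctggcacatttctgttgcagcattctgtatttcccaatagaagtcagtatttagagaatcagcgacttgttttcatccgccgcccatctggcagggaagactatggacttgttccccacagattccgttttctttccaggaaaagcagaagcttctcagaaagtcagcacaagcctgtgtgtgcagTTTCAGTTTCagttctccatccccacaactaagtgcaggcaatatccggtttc
Oas1g: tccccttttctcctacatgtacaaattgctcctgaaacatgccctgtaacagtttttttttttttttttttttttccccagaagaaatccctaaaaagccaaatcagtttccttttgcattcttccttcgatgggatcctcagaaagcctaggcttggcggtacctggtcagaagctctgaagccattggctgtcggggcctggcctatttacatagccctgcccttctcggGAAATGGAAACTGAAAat

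Of 30 listed interferon genes with a 300-base window in that table, 19 (63.3%) held the motif, against 3.99% of 27025 gene symbols. It was present for 14 of the 20 with a window that rose and for 3 of the 8 tested genes with a window that were not called.

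Isg15, a ubiquitin-like modifier, had 9.56, 21.8, 17.3, 18.5 and 17.3 CPM in HFD livers, against 4.34, 3.83, 4.27, 3.43 and 0.823 CPM in NFD livers, with a gap between the groups and HFD replicate 2 the highest (log2 fold change 2.32 ± 0.31 SE, adjusted p = 7.44e-05). Gbp7, a guanylate-binding protein, had 9.56, 13.5, 13.5, 10.9 and 7.76 CPM in HFD livers, against 3.14, 2.68, 4.41, 4.49 and 3.88 CPM in NFD livers (log2 fold change 1.57 ± 0.27 SE, adjusted p = 6.30e-04). Oas1g, an oligoadenylate synthetase named after its values were seen, had 8.35, 7.43, 3.77, 6.11 and 9.73 CPM in HFD livers, against 3.14, 1.10, 1.49, 2.45 and 1.29 CPM in NFD livers, the groups being close but apart (log2 fold change 1.91 ± 0.33 SE, adjusted p = 7.02e-04). Gbp6, of the same family as Gbp7, had 13.7, 12.3, 13.6, 11.6 and 17.8 CPM in HFD livers, against 2.95, 4.26, 3.87, 3.51 and 5.17 CPM in NFD livers (log2 fold change 1.81 ± 0.24 SE, adjusted p = 5.31e-05). Oasl2 rose by 1.90 ± 0.30 (SE) (adjusted p = 3.60e-04) without overlap. Iigp1, a GTPase induced by interferon gamma, had 205, 186, 216, 191 and 196 CPM in HFD livers, against 111, 126, 138, 169.7 and 120.4 CPM in NFD livers. Its groups did not overlap either, but the difference was not called (log2 fold change 0.58 ± 0.24 SE, adjusted p = 0.107).

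Proliferation genes were low in both groups and several rose. Of 31 tested cell cycle genes (32 listed), 9 rose and 0 fell (median 1.28), and the sum was 64.2 to 123 CPM in HFD livers and 37.5 to 44.4 CPM in NFD livers, without overlap. Mki67, the Ki-67 antigen of dividing cells, had 6.54, 3.82, 3.02, 9.24 and 14.3 CPM in HFD livers, against 1.11, 0.304, 0.678, 0.490 and 0 CPM in NFD livers (log2 fold change 3.80 ± 0.60 SE, adjusted p = 4.12e-04). Top2a, a topoisomerase of dividing cells, had 2.31, 1.02, 1.80, 3.60 and 3.24 CPM in HFD livers, against 0.369, 0, 0.475, 0.0816 and 0 CPM in NFD livers (log2 fold change 3.62 ± 0.69 SE, adjusted p = 0.00152). Ccnd1, cyclin D1, had 38.2, 16.9, 18.3, 38.2 and 16.3 CPM in HFD livers, against 7.20, 7.61, 3.73, 4.001 and 12.1 CPM in NFD livers (log2 fold change 1.89 ± 0.34 SE, adjusted p = 0.00129). The groups of these 3 genes did not overlap, and HFD replicates 2 and 3 were the lower HFD livers for Mki67 and Top2a. In the fit of the 10 HFD and NFD libraries alone 4 were called (Mki67, Top2a, Ccnd1 and Cenpf).

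Few fibrosis genes were called. Of 35 tested stellate cell and fibrosis genes (36 in the table), 4 rose and 2 fell (median 0.30), shares of 11.4% and 5.71%. Mmp13, an interstitial collagenase, had 2.51, 0.713, 2.02, 3.55 and 1.04 CPM in HFD livers, against 0 CPM in all 5 NFD livers, at least 38.7-fold higher in HFD livers with a floor of 3 counts over the NFD group (adjusted p = 1.50e-04). Timp1, an inhibitor of such enzymes, had 0.604, 0.305, 1.49, 0.992 and 1.54 CPM in HFD livers, against 0.185, 0, 0, 0.163 and 0 CPM in NFD livers (log2 fold change 3.83 ± 0.83 SE, adjusted p = 0.00431). Col5a2, a fibrillar collagen chain, rose by 1.90 ± 0.45 (SE) (adjusted p = 0.00874) with overlap. Col3a1 rose, and Col14a1 and Reln fell, but Col3a1 lost its call when any 1 of 8 libraries was left out (adjusted p up to 0.118, without HFD replicate 5) and Col14a1 lost its call when any 1 of 4 libraries was left out (adjusted p up to 0.0818, without NFD replicate 5). Reln lost its call when any 1 of 3 libraries was left out (adjusted p up to 0.0596, without HFD replicate 4). Col1a1, the main chain of scar collagen, had 45.3, 12.7, 23.2, 47.1 and 78.9 CPM in HFD livers, against 15.6, 23.9, 1.70, 4.74 and 7.99 CPM in NFD livers and was not called (log2 fold change 1.94 ± 0.73 SE, adjusted p = 0.0993). DESeq2 called Col1a1 higher (adjusted p = 0.0422), and it called 10 of the 35 genes against 6 by edgeR. Of 22 sinusoidal endothelial markers, edgeR called 0, with 1 at an unadjusted p under 0.05 (Kdr), and DESeq2 called 0 (median -0.02). Of 17 tested cholangiocyte and epithelial keratin markers (22 listed), Krt8, Spp1, Anxa4 and Sox4 rose and 0 fell. Krt8, a keratin of hepatocytes and bile ducts, had 77.7, 70.7, 80.2, 122 and 74.5 CPM in HFD livers, against 55.4, 52.5, 45.0, 24.2 and 47.0 CPM in NFD livers (log2 fold change 0.92 ± 0.26 SE, adjusted p = 0.0218), just apart. Krt8 lost its call without HFD replicate 4 (adjusted p = 0.0758). Anxa4 was no firmer, since Anxa4 lost its call when any 1 of 4 libraries was left out (adjusted p up to 0.0669, without HFD replicate 4).

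Among 28 tested immediate-early and stress genes (30 listed), 9 rose, the glucocorticoid target Fkbp5 fell and 18 were not called (median 0.73). The 30 listed genes summed to 453 to 569 CPM in HFD livers and 335 to 962 CPM in NFD livers, with overlap. Klf6, a zinc finger factor induced by injury, had 18.9, 8.35, 20.4, 20.6 and 18.0 CPM in HFD livers, against 4.43, 4.44, 4.75, 2.37 and 5.99 CPM in NFD livers (log2 fold change 1.98 ± 0.28 SE, adjusted p = 1.13e-04). Atf3, a stress-induced repressor, had 12.3, 4.94, 9.37, 15.0 and 10.4 CPM in HFD livers, against 1.20, 1.34, 0.746, 0 and 3.76 CPM in NFD livers (log2 fold change 2.96 ± 0.57 SE, adjusted p = 0.00269). Jun, a subunit of AP-1, rose by 1.27 ± 0.22 (SE) (adjusted p = 8.17e-04). None of the 3 overlapped between groups, although NFD replicate 5 was well above the other NFD livers for Atf3.

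Clock genes changed in both directions. Of 23 tested, 6 rose and 3 fell, and without HFD replicate 5 the risers were the 3 genes Dbp, Per3 and Usp2. Dbp, a rhythmic activator of liver metabolism, had 58.3, 90.5, 51.3, 42.1 and 54.3 CPM in HFD livers, against 18.8, 8.58, 22.1, 11.02 and 8.58 CPM in NFD livers (log2 fold change 2.10 ± 0.27 SE, adjusted p = 4.48e-05). Per3, a period gene, rose by 1.62 ± 0.33 (SE) (adjusted p = 0.00264). Nfil3, which binds the same sites as Dbp and represses them, had 4.02, 4.68, 3.15, 5.01 and 4.71 CPM in HFD livers, against 7.66, 12.96, 11.9, 6.61 and 16.9 CPM in NFD livers (log2 fold change -1.37 ± 0.30 SE, adjusted p = 0.00459). Bmal1, the core activator of the clock, had 1.11, 2.29, 2.10, 1.83 and 3.32 CPM in HFD livers, against 3.51, 5.35, 4.81, 7.67 and 8.34 CPM in NFD livers (log2 fold change -1.45 ± 0.36 SE, adjusted p = 0.0111), and the repressor Cry1 fell too. The groups of Dbp, Per3, Nfil3 and Bmal1 did not overlap. The hour at which livers were taken is not given in the sources used here.

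Of 26 tested hepatokines and stress hormones, Gdf15, Lcn2, Gpnmb, Inhbe and Tsku rose and Angptl4 and Angptl6 fell. Inhbe lost its call when any 1 of 5 libraries was left out (adjusted p up to 0.0846, without HFD replicate 4). Gdf15, a hormone that reduces food intake, had 8.05, 15.0, 8.80, 13.5 and 6.45 CPM in HFD livers, against 0, 1.22, 1.08, 1.22 and 0.235 CPM in NFD livers, without overlap (log2 fold change 3.68 ± 0.44 SE, adjusted p = 2.81e-05). Lcn2, an iron-scavenging acute phase protein, had 18.4, 12.5, 24.7, 44.2 and 39.3 CPM in HFD livers, against 6.92, 1.28, 1.08, 1.31 and 0.235 CPM in NFD livers (log2 fold change 3.70 ± 0.69 SE, adjusted p = 0.00377). NFD replicate 1 was the highest NFD liver. Fgf21, a fasting and stress hormone of the liver, had 9.05, 5.498, 9.46, 12.1 and 5.87 CPM in HFD livers, against 1.94, 5.90, 1.22, 6.29 and 0.9401 CPM in NFD livers. It overlapped between groups and was not called (log2 fold change 1.33 ± 0.47 SE, adjusted p = 0.0683). It was called higher by DESeq2 (adjusted p = 0.0203), and by edgeR with the replicate block (adjusted p = 0.0291), without NFD replicate 2 (adjusted p = 0.0390) and without NFD replicate 4 (adjusted p = 0.0282). Of 27 tested acute phase genes, 7 rose and 4 fell (median 0.10). Saa3, a serum amyloid made by macrophages, had 5.73, 11.2, 8.32, 4.07 and 10.0 CPM in HFD livers, against 1.11, 2.37, 2.37, 1.55 and 0.9401 CPM in NFD livers (log2 fold change 2.20 ± 0.30 SE, adjusted p = 9.28e-05). Fga, the alpha chain of fibrinogen, had 139, 137, 109, 138 and 129.5 CPM in HFD livers, against 527, 523, 275, 250.5 and 374 CPM in NFD livers (log2 fold change -1.58 ± 0.23 SE, adjusted p = 1.50e-04), so these 2 members moved oppositely, each without overlap. Fgg, Itih3 and Serpina3k also fell, and Itih3 lost its call when any 1 of 7 libraries was left out (adjusted p up to 0.0901, without HFD replicate 5).

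Bile acid transport showed opposite changes at its uptake steps. Slc10a1, which takes bile acids from portal blood into hepatocytes, had 16.4, 35.7, 19.5, 17.8 and 20.3 CPM in HFD livers, against 56.4, 49.8, 49.3, 50.7 and 39.5 CPM in NFD livers (log2 fold change -1.16 ± 0.22 SE, adjusted p = 0.00166). Slc10a2, the uptake transporter of bile duct cells and ileum, had 3.02, 3.26, 4.64, 5.12 and 7.53 CPM in HFD livers, against 1.66, 0.487, 1.36, 1.39 and 0.118 CPM in NFD livers (log2 fold change 2.22 ± 0.41 SE, adjusted p = 0.00136). In both genes HFD and NFD livers were apart. Cyp7a1, the rate-limiting enzyme of bile acid synthesis, had 16.5, 45.9, 42.5, 14.9 and 10.7 CPM in HFD livers, against 13.9, 16.9, 40.1, 8.00 and 4.70 CPM in NFD livers and was not called (log2 fold change 0.63 ± 0.53 SE, adjusted p = 0.469). Of 28 tested bile acid genes, 1 rose and 6 fell.

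Some enzymes that process foreign compounds rose and others fell. Of 33 tested P450 genes of families 2 and 3, Cyp2a22, Cyp2c38, Cyp2a12 and Cyp2a4 rose and Cyp2f2 and Cyp2c29 fell, 12.1% and 6.06% of the list, near the shares of all genes. In every fit that left out 1 library, 2 of these risers and 1 gene that fell kept their call. Cyp2a22 had 78.7, 81.9, 61.0, 78.6 and 55.8 CPM in HFD livers, against 3.14, 1.22, 4.14, 22.5 and 1.76 CPM in NFD livers, with NFD replicate 4 far above the other NFD livers and below every HFD liver (log2 fold change 3.44 ± 0.68 SE, adjusted p = 0.00522). Cyp2a12 lost its call when any 1 of 5 libraries was left out (adjusted p up to 0.0677, without HFD replicate 5). Of 38 tested phase II and NRF2 genes, Gsta1, Gstm3, Srxn1 and Ephx1 rose and 8 fell (10.5% and 21.1%), of which 3 and 5 kept their call in those fits. Gstm3, a glutathione transferase, had 36.3, 12.5, 29.9, 61.4 and 61.0 CPM in HFD livers, against 8.12, 5.60, 6.78, 2.94 and 6.11 CPM in NFD livers (log2 fold change 2.77 ± 0.49 SE, adjusted p = 0.00166), without overlap. Ephx1 lost its call when any 1 of 7 libraries was left out (adjusted p up to 0.112, without HFD replicate 4).

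Transcripts of red blood cells were lower in HFD livers. Of 9 tested erythroid and blood genes, 5 fell (median -2.15), and the list summed to 140.1 to 1402 CPM in HFD livers and 1290.0 to 4035 CPM in NFD livers, with HFD replicate 2 inside the NFD range. Alas2, the heme synthesis enzyme of red cells, had 29.6, 35.2, 25.5, 19.7 and 10.4 CPM in HFD livers, against 83.9, 56.4, 72.1, 36.2 and 126 CPM in NFD livers (log2 fold change -1.64 ± 0.33 SE, adjusted p = 0.00267). The globin calls were less firm: Hba-a1 lost its call when any 1 of 5 libraries was left out (adjusted p up to 0.0637, without NFD replicate 1) and Hba-a2 lost its call without NFD replicate 1 (adjusted p = 0.0557). Hbb-bs lost its call when any 1 of 5 libraries was left out (adjusted p up to 0.0618, without NFD replicate 1). Pf4 lost its call when any 1 of 6 libraries was left out (adjusted p up to 0.110, without HFD replicate 5). Alas2 was the 1 gene called without the filter on low counts.

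In several other groups few genes were called. Of 30 endoplasmic reticulum and integrated stress genes, Nupr1 and Trib3 rose and Asns fell, shares below those of all genes. Nupr1, a stress-induced chromatin protein, averaged 5.08 ± 1.76 CPM in HFD livers and 1.88 ± 0.835 CPM in NFD livers (SD, n = 5 each; log2 fold change 1.44 ± 0.36 SE, adjusted p = 0.0106), with overlap. Asns lost its call when any 1 of 6 libraries was left out (adjusted p up to 0.0811, without NFD replicate 1). Of 26 genes of phosphatidylcholine and ethanolamine metabolism, Lpcat1 and Lpcat4 rose and Etnppl, Dmgdh and Aldh7a1 fell. Their shares were 7.69% and 11.5%, against 7.19% and 5.96% of all genes. Etnppl, which breaks down phosphoethanolamine, had 5.93, 21.0, 7.93, 7.57 and 12.6 CPM in HFD livers, against 39.03, 52.2, 99.1, 46.2 and 142 CPM in NFD livers (log2 fold change -2.77 ± 0.42 SE, adjusted p = 4.71e-04), far apart. Lpcat4 lost its call without HFD replicate 5 (adjusted p = 0.0538). Of 19 tested retinoid genes, Cyp26a1, Rdh10 and Dhrs9 rose (15.8%). Each lost its call in some fits with 1 library left out, all 3 without HFD replicate 5. Of 38 complement and coagulation genes, C1qa, C1qb and C1qc rose and C8b, C6, F13b and F10 fell (7.89% and 10.5%). F10 lost its call when any 1 of 6 libraries was left out (adjusted p up to 0.0845, without NFD replicate 1).

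Among single genes outside these groups, several were near or at 0 counts in NFD livers. Fam83a, a signalling adaptor, had 3.72, 0.204, 2.50, 5.59 and 4.33 CPM in HFD livers, against 0 CPM in all 5 NFD livers, at least 68.1-fold higher with a floor of 3 counts over the NFD group (adjusted p = 3.25e-04). Pls1, an actin-bundling protein, had 1.71, 0.764, 2.45, 3.40 and 2.36 CPM in HFD livers, against 0 CPM in all 5 NFD livers, at least 45.95-fold higher (adjusted p = 1.13e-04). Slc35f2, a solute carrier, had 1.31, 0.814, 1.18, 2.04 and 2.16 CPM in HFD livers, against 0 CPM in all 5 NFD livers, at least 32.4-fold higher (adjusted p = 4.48e-05). In each of these, HFD replicate 2 was the lowest HFD liver. H2-M2, a class I-like MHC gene, had 354 counts in HFD and 2 in NFD libraries, a ratio of 114 between the levels in CPM (95% exact interval 31.3 to 945; adjusted p = 3.15e-05). Ephb2, an ephrin receptor, had 10.7, 1.48, 8.41, 15.5 and 8.96 CPM in HFD livers, against 0, 0.183, 0.136, 0 and 0 CPM in NFD livers (log2 fold change 6.75 ± 0.86 SE, adjusted p = 1.01e-04). Ly6d, a surface protein named after its values were seen, had 26.9, 9.77, 21.3, 44.7 and 19.2 CPM in HFD livers, against 0.185, 0.852, 0.475, 0 and 0.118 CPM in NFD livers (log2 fold change 6.03 ± 0.63 SE, adjusted p = 2.81e-05). Among large falls outside the groups above, Myh11, the myosin of smooth muscle, had 0.101, 1.02, 0.569, 0.888 and 1.31 CPM in HFD livers, against 5.17, 21.6, 1.42, 8.08 and 2.59 CPM in NFD livers (log2 fold change -3.25 ± 0.81 SE, adjusted p = 0.0159). Its levels varied widely among NFD livers, and its call ended without the filter on low counts (adjusted p = 0.0501).

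In the authors' deposited table of this comparison 1274 genes are called for HFD against NFD, 799 higher and 475 lower. Of these, 1104 (86.7%) were called here in the same direction, which is 59.3% of the 1863 called here, and 0 in the opposite direction.

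The diet effect after 18 weeks was set against that after 10 weeks (MC against NC), which shares no library with it. Of 13498 genes tested there, 1645 (12.2%) were called, 898 higher in MC livers (6.65%) and 747 lower (5.53%). Of 13298 genes tested in both comparisons, 353 were called in both, which is 20.1% of the 1758 HFD and NFD calls and 21.5% of the 1639 MC and NC calls among these genes, and 306 of them went the same way (154 up and 152 down). The difference of the 2 diet effects was called for 801 of 14784 genes (5.42%), 295 of them positive (2.00%), that is more positive at 18 weeks, and 506 negative (3.42%). The count was 389 in the fit of the 20 libraries alone, 204 with the mitochondrial share as a covariate, 1205 to 1383 without MC replicate 5, HFD replicate 2 or NFD replicate 5, and 495 to 524 without MC replicate 3 or 4, HFD replicate 4 or 5 or NFD replicate 2. The studies differ in duration and in animals, and these cannot be told apart. Levels of the 10-week study below are scaled within that study.

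Several lipid storage, amino acid and macrophage genes were called in the same direction in both comparisons. Of 22 lipid droplet genes, 11 rose and 0 fell in MC livers, against 3 and 1 in HFD livers. Cd36 averaged 53.0 CPM in MC livers and 10.1 CPM in NC livers (log2 fold change 2.39 ± 0.22 SE, adjusted p = 4.26e-07), and the difference of its 2 effects was not called (-0.06 ± 0.33 SE, adjusted p = 0.951). Cidec had a log2 fold change of 2.84 ± 0.63 (SE) at 10 weeks (adjusted p = 0.0125), and its difference was not called either (0.28 ± 0.69 SE, adjusted p = 0.869). Of the 41 amino acid genes, 22 fell and Glul rose in MC livers, and the difference was called for Hgd and Haao. Gls2 fell by 1.46 ± 0.16 (SE) in MC livers on the log2 scale (adjusted p = 6.15e-06). Trem2 averaged 4.76 CPM in MC livers and 0.546 CPM in NC livers (log2 fold change 3.12 ± 0.63 SE, adjusted p = 0.00391), with no call of the difference (0.87 ± 0.83 SE, adjusted p = 0.599). In all, 9 of 21 macrophage markers tested at 10 weeks rose. Cholesterol genes were divided at 10 weeks, with 6 lower and 5 higher of 29 in MC livers. Idi1 fell by 3.20 ± 0.40 (SE) there (adjusted p = 4.85e-05; difference -0.21 ± 0.63 SE, adjusted p = 0.894).

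The major urinary proteins and the interferon genes differed between the studies. At 10 weeks, 12 of 20 tested Mup genes rose and 0 fell in MC livers (median 1.99, against -2.08 at 18 weeks), and the difference was negative and called for 17. Mup15 averaged 2763 CPM in MC livers and 296 CPM in NC livers (log2 fold change 3.22 ± 0.95 SE, adjusted p = 0.0457), and the difference of its effects was -8.62 ± 1.53 (SE; adjusted p = 0.00355). For male-biased genes the difference was called negative for 23 of 28, including Hsd3b5 (-5.81 ± 1.40 SE, adjusted p = 0.0171) and Slco1a1 (-3.74 ± 0.56 SE, adjusted p = 9.59e-04). Hsd3b5 averaged 10.2 CPM in MC livers and 9.16 CPM in NC livers, and was not called there.

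Of the 38 interferon genes, 0 rose and 9 fell at 10 weeks (median -0.68), and the difference was positive and called for 21. Oasl2 averaged 5.85 CPM in MC livers and 13.4 CPM in NC livers (log2 fold change -1.21 ± 0.36 SE, adjusted p = 0.0333), with a difference of 3.06 ± 0.48 (SE; adjusted p = 9.59e-04). Isg15 averaged 13.6 CPM in MC livers and 21.8 CPM in NC livers, and 16.9 ± 4.49 CPM in HFD livers and 3.34 ± 1.45 CPM in NFD livers (SD, n = 5 each), with a difference of 2.96 ± 0.65 (SE; adjusted p = 0.00958). Fatty acid oxidation genes also differed, with 14 of 40 called more negative at 18 weeks. Acaa2 averaged 296 CPM in MC livers and 301 CPM in NC livers (log2 fold change -0.02 ± 0.19 SE, adjusted p = 0.957), with a difference of -1.37 ± 0.30 (SE; adjusted p = 0.00741). Of 51 nuclear respiratory chain genes, 15 were called more negative at 18 weeks. Mki67 averaged 0.790 CPM in MC livers and 1.13 CPM in NC livers, and its difference was 4.30 ± 0.82 (SE; adjusted p = 0.00340). The mitochondrial share was 25.7% to 47.4% in MC and 42.5% to 51.6% in NC libraries, and its part in these differences was not tested beyond the covariate fit above.

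**Figure D5:**
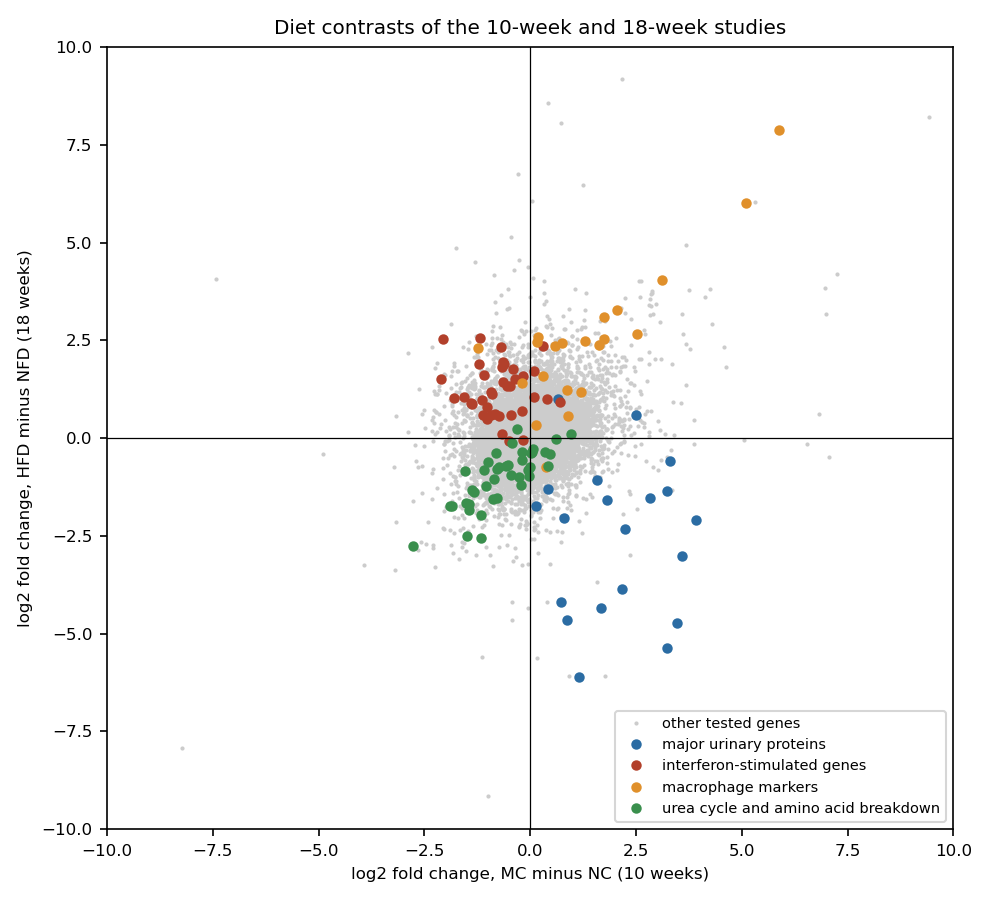
Log2 fold changes of genes tested in both studies, MC minus NC after 10 weeks on the x axis and HFD minus NFD after 18 weeks on the y axis (grey dots are other genes, coloured dots are list members). The lower right holds 18 of 20 major urinary proteins, the upper left 31 of 38 interferon genes, the upper right 18 of 21 macrophage markers and the lower left 32 of 41 amino acid genes.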

How the data were processed

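Liver RNA was extracted with TRIzol, poly(A) RNA was made into stranded libraries and read pairs came from a NovaSeq X Plus instrument (source: the labels' protocols). The submitters' processing notes name fastp, HISAT2, StringTie, DESeq2 and GRCm39, and their versions and the annotation are not given in the sources used here. The authors deposited estimated counts per gene and library for 57180 gene IDs, of which 4.02% to 7.03% per library were not whole, and they were rounded. The TPM values that the authors deposited were not used. The authors' deposited yes or no calls per comparison carry no thresholds in the table. Gene names are those of the deposited table, and 56620 IDs matched the GENCODE M39 annotation used for coordinates. No pair of the 20 replicate pairs held identical values.

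The 5 HFD, 5 NFD and 5 UB-NPs libraries of the obese study were fitted together in edgeR 4.0.16 (R 4.3.3), with trimmed-mean scaling, its default filter on low counts and the quasi-likelihood F-test. Adjusted p-values are Benjamini-Hochberg values across every gene tested, with a threshold of 0.05. The 10-week comparison was fitted in the same way over the 5 MC, 5 NC and 5 UB-NPs libraries of its study. The difference of effects was fitted over all 30 libraries. The standard error of a log2 fold change was taken as its size divided by the square root of F. Single values were tested by exact two-sided permutation, with a smallest p of 0.00794 for 5 against 5. A group at 0 counts was given a floor of 3 counts, and intervals (95%, exact) cover counting error only. DESeq2 1.42.0, Python 3.11.15, NumPy 2.4.6, pandas 2.3.3, SciPy 1.17.1 and matplotlib 3.10.9 were also used. The test was checked on simulated counts.

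The members and the 43 gene lists (1034 genes) were chosen with earlier results of these data known. Genes were named by a rule: the 10 called genes that rose most and the 10 that fell most (characterised, at least 1 CPM, groups not overlapping), in each list up to 4 called members with the smallest adjusted p and up to 3 uncalled members with the highest level, 30 genes of interest, and the 4 largest differences of effects in each direction. Further genes were named after their values were seen, either so marked or to complete a count or a pathway (Scd2, Elovl1, Elovl5, Acss2, Vldlr, Lcat, Mvd, Sqle, Abcg5, Abcg8, Hmgcs1, Ppp1r3c, Acot3, Cxcl12, Ccl2, Ccl4, Cd8a, Lck, Col3a1, Col14a1, Fkbp5, Bmal1, Cry1, Inhbe, Tsku, Fgg, Itih3, F10, F13b, Cyp2a12, Srxn1, Gsta1, Ephx1, Pf4, Lpcat4 and Kdr). Some genes that the rule names are not reported here. Alternatives were another scaling (RLE), DESeq2, no filter, the groups compared alone, the replicate number as a block, the mitochondrial genes left out, the mitochondrial share as a covariate, and each library left out.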

Additional observations from a re-analysis of the deposited data

Results flagged for a closer look

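In 27 of 248 groups of 5 values examined, the highest or lowest sample stood far from its neighbours by Dixon's criterion, where chance flags about 1 in 20 groups. HFD replicate 2 gave 11 of them. It was the highest HFD liver for Abcg5 (162 CPM), Asl (310.1 CPM), Cbs (84.5 CPM), Cyp2e1 (1383 CPM), Cyp4a10 (595 CPM), Egfr (51.5 CPM), Hsd3b5 (1.73 CPM), Mup1 (154 CPM), Mup7 (245 CPM) and Slc10a1 (35.7 CPM), and the lowest for Klf6 (8.35 CPM). For 10 of these 11 genes, all but Abcg5, it was the HFD liver nearest the NFD mean. HFD replicate 1 was lowest for Hmgcs1 (55.2 CPM), for the total count (17715680) and for the count outside the mitochondrial genome (7351075). HFD replicate 4 was highest for Csf1r (51.7 CPM), Krt8 (122 CPM) and Pltp (124 CPM).

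Among NFD livers, replicate 4 was lowest for C8b (22.9 CPM) and highest for Cyp2a22 (22.5 CPM), H2-M2 (0.163 CPM) and Slc22a27 (0.408 CPM). NFD replicate 5 was highest for Elovl3 (566 CPM), Idi1 (53.6 CPM) and Mmp12 (1.29 CPM), and lowest for Isg15 (0.823 CPM). NFD replicate 1 was highest for Lcn2 (6.92 CPM) and NFD replicate 2 for Plin2 (213 CPM).

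The diet effect at 18 weeks (HFD minus NFD) differed from that at 10 weeks (MC minus NC) for 37 of the genes given with values, by edgeR's interaction term at an adjusted p under 0.05 over all genes. It was more positive for 15. Among complement, antigen presentation, chemokine and interferon genes the log2 differences were 1.92 for C1qb, 2.32 for Ccl5, 2.79 for Ctss, 4.78 for Cxcl1, 2.25 for Cxcl9, 1.54 for H2-Aa, 2.96 for Isg15, 2.48 for Oas1g and 3.06 for Oasl2. They were 1.82 for Klf6, 4.30 for Mki67 and 3.59 for Top2a. For Mmp13 (6.78), Pls1 (8.04) and Slc35f2 (7.20), which had 0 counts in NFD libraries, the fitted difference depends on the prior count and is no measure of size.

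The effect was more negative at 18 weeks for 22. Among the listed male-biased genes and the major urinary proteins the log2 differences were -1.52 for C8b, -3.16 for Elovl3, -2.18 for Gstp1, -5.81 for Hsd3b5, -6.06 for Mup1, -8.62 for Mup15, -7.30 for Mup7, -4.50 for Serpina1e, -1.80 for Serpina3k and -3.74 for Slco1a1. In fatty acid oxidation and the respiratory chain they were -1.37 for Acaa2, -1.06 for Atp5f1a, -1.71 for Atp5mc3, -2.31 for Cyp4a10, -1.19 for Ndufv1 and -1.08 for Slc25a20. The others were -1.74 for Alas2, -1.47 for Cyp2e1, -1.75 for Hacl1, -1.78 for Egfr, -1.22 for Igf1 and -1.16 for Slc10a1.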

How the results depend on the processing

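Of the 105 called genes given with values, 105 kept their call with RLE scaling, with DESeq2 and with mitochondrial genes left out, 103 without the filter on low counts, and 0 changed direction in any alternative. Many of these genes were named for a small adjusted p or a large change in the main fit, so kept calls were likely from the start. With 1 library left out, 4 of them lost their call. Called genes named without values, many of which lost their call in those fits, are not among the 105. Calls of HFD against NFD numbered 1081 (566 higher, 515 lower) in the 10 libraries alone, 1169 (621 higher, 548 lower) there with the mitochondrial share as a covariate, an alternative chosen after seeing the data, and 1108 (664 higher, 444 lower) to 2341 (1228 higher, 1113 lower) with 1 library left out. Fam83a, Timp1 and Trac were not tested in the 10 libraries alone. The UB-NPs libraries of the obese study, with a mitochondrial share of 10.2% to 15.6%, are absent from those 2 fits. The difference of diet effects numbered 389 genes (185 positive, 204 negative) in the 20 libraries alone, 204 (96 positive, 108 negative) with the mitochondrial share as a covariate, and 495 to 1383 (176 to 493 positive, 298 to 890 negative) with 1 library left out; the cause was not tested. Among uncalled genes, Clec4f ranged from -0.24 to 0.19 and Fasn from -0.057 to 0.30 on the log2 scale with 1 library left out. Replicate numbers do not pair the libraries (correlations of same-numbered deviations -0.26 to 0.18), and with the replicate block 1411 genes were called (767 higher), while Abcg5 (adjusted p = 0.0539) and Hmgcs1 lost their call. Counts outside the mitochondrial genome and its copies on chromosome 1, 3139412 to 8312731 in HFD and 3443331 to 7451343 in NFD libraries, limit the test of genes near 0 counts.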
